A study of Mus musculus with 9 samples.

Results

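The UDP-glucuronosyltransferases (UGTs) of mouse liver were followed through 10 genes, Ugt1a1, Ugt1a6a, Ugt1a9, Ugt2a3, Ugt2b1, Ugt2b5, Ugt2b34, Ugt2b35, Ugt2b36 and Ugt2b38, found by matching each symbol to the gene name of the rows of the gene expression table. Of 52151 gene entries, 11 carried one of these names. Known transcripts stood behind an entry for 8 of the 10 genes. Ugt1a6a had 2 rows of a single assembled transcript each, the higher reaching 2.18 FPKM (fragments counted on a transcript, scaled by its length and by the size of the library), and Ugt1a9 had no row of its own. A further assembled-only row named Ugt2b36 reached 1.56 FPKM and was set aside.

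Total liver RNA was depleted of ribosomal RNA and sequenced in 9 libraries, 3 for each of 3 groups. Pair-fed mice (PF) took an isocaloric control liquid diet for 5 weeks, alcohol-fed mice (AF) took the Lieber-DeCarli alcohol diet for 5 weeks, and the third group (AF with MNA) took that alcohol diet while receiving MNA into the peritoneal cavity each day at 50 mg/kg. The labels gave an age of 8 weeks and do not spell out MNA, and no vehicle injection is stated for PF or AF, so that injection and compound cannot be told apart. The strain label read C57BL/6 in PF and AF and ran C57BL/7, C57BL/8 and C57BL/9 over the 3 AF with MNA libraries. The study's methods describe male mice fasted before the livers were taken, and each library was numbered as a separate sample, without a statement that each came from 1 mouse. The p-values below therefore measure the spread between these libraries.

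UGTs are enzymes of the endoplasmic reticulum membrane that transfer glucuronic acid from UDP-glucuronic acid to bilirubin, steroids, bile acids, drugs and other lipophilic molecules, which makes them soluble enough to be excreted in bile or urine. In the Ugt1a locus each enzyme has its own first exon and promoter, and all of them splice to one common set of later exons. The Ugt2 genes are separate genes lying side by side in a cluster, and the liver is rich in several Ugt2b enzymes.

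The common exons decided what the Ugt1a row measured, and the sequences below are shown for that reason. The 30 coding bases before the splice junction, in lower case, come from each gene's own first exon, and the 30 bases after it, in capitals, come from the exon that every Ugt1a transcript shares (GENCODE M21, GRCm38, plus strand of chromosome 1, 5′ to 3′).

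Ugt1a1: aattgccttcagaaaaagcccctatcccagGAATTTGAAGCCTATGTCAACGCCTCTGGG

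Ugt1a6a: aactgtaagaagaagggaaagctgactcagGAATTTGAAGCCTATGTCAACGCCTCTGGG

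Ugt1a9: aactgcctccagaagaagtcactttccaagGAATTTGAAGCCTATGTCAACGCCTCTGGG

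The reference transcripts of Ugt1a1 (2224 bases), Ugt1a6a (2265 bases) and Ugt1a9 (2190 bases) had 4 identical exons totalling 1311 bases. In the coding sequence, 76.3% of aligned positions matched between Ugt1a1 and Ugt1a6a and 74.7% between Ugt1a1 and Ugt1a9. The entry named Ugt1a1 held 21 transcripts, 12 of them known and drawn from 7 of the 9 Ugt1a genes of that annotation (Ugt1a1, Ugt1a2, Ugt1a6a, Ugt1a6b, Ugt1a7c, Ugt1a8 and Ugt1a10). It is therefore a measure of the Ugt1a locus at chr1:88055388-88220002 and not of Ugt1a1, the enzyme that conjugates bilirubin, alone. Ugt1a6a, which acts on planar phenols, was counted within it.

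The Ugt2 members lay in a cluster of chromosome 5 between Ugt2b34 at chr5:86889767-86906937 and Ugt2b38 at chr5:87409942-87424203. Ugt2b35 (chr5:87000860-87013275) was on the plus strand. Ugt2b1 (chr5:86916638-86926530), Ugt2b36 (chr5:87065927-87092555), Ugt2b5 (chr5:87124960-87140318) and Ugt2a3 (chr5:87324972-87337195) were on the minus strand with Ugt2b34 and Ugt2b38. The coding sequences of Ugt2b5 and Ugt2b38 were 97% identical, and 40.8% of the 50-base windows of Ugt2b5 occurred unchanged in another member, against 40.9% in Ugt2b38 and between 0% and 4.01% in Ugt2b1, Ugt2b34, Ugt2b35, Ugt2b36 and Ugt2a3. How reads that match both genes were assigned is not given in the sources used here, so the split between Ugt2b5 and Ugt2b38 is uncertain.

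The bases just upstream of the transcription start are shown for Ugt2b5, Ugt2b38 and Ugt2b36, the members most alike there. The 120 bases before the RefSeq start (GRCm38.p6, strand of the gene, 5′ to 3′) are given, with capitals marking AGGTCA, a half-site of nuclear receptors.

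Ugt2b5 (chr5:87140341-87140460): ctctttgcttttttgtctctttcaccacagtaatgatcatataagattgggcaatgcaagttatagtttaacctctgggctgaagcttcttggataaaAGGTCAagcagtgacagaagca

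Ugt2b38 (chr5:87424204-87424323): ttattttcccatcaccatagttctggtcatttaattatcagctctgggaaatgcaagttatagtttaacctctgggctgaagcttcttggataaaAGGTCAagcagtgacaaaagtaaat

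Ugt2b36 (chr5:87092556-87092675): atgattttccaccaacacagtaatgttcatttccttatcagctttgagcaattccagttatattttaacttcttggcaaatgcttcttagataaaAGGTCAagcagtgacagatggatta

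Ugt2b36 and Ugt2b38 were identical at 75% of aligned upstream positions, the highest value among the pairs of members, followed by Ugt2b5 and Ugt2b38 at 73.8% and Ugt2b5 and Ugt2b36 at 68.5%. The half-site, searched on both strands of the 250 upstream bases, was separated from the start by 16 bases in Ugt2b5 and by 19 in Ugt2b38 and Ugt2b36. It was also found farther upstream in Ugt2b35 and Ugt1a9, so that 5 of 10 members held it, against 14% of all 32851 RefSeq promoters. The letters GCGTG, the core bound by the aryl hydrocarbon receptor, TGACNNNGC, the core bound by NRF2, and TATAAA were in 0 of 10 members' windows, against 28.2%, 10.2% and 12.4% of all promoters. A match is no proof of binding, and a lack of these letters in a window says nothing of sites elsewhere.

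Ugt2b transcripts made up most of the family's signal in every group. The FPKM of the 8 entries summed to 661 ± 38.7 in PF (SD, n = 3), 653 ± 119 in the AF group and 652 ± 82.9 in AF with MNA. The 6 Ugt2b entries supplied 96.6% ± 1.10 of it in PF, 94.8% ± 1.93 in the AF group and 94.4% ± 1.00 in AF with MNA. The 3 group means of the sum lay within 10 FPKM of each other, less than the SD of any group. The composition was not tested against the sum. For Ugt2b1 and Ugt2b36 the mean shares of PF and AF with MNA differed by more than the SD of either group. Between PF and AF the difference was below the larger SD for both. Ugt2b1 held a mean share of 27.4% ± 6.67 in PF, 20.9% ± 2.97 in the AF group and 14.5% ± 5.36 in AF with MNA, and Ugt2b36 held 17.3% ± 1.76, 22.5% ± 6.47 and 25.6% ± 4.70.

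**Figure D1:**
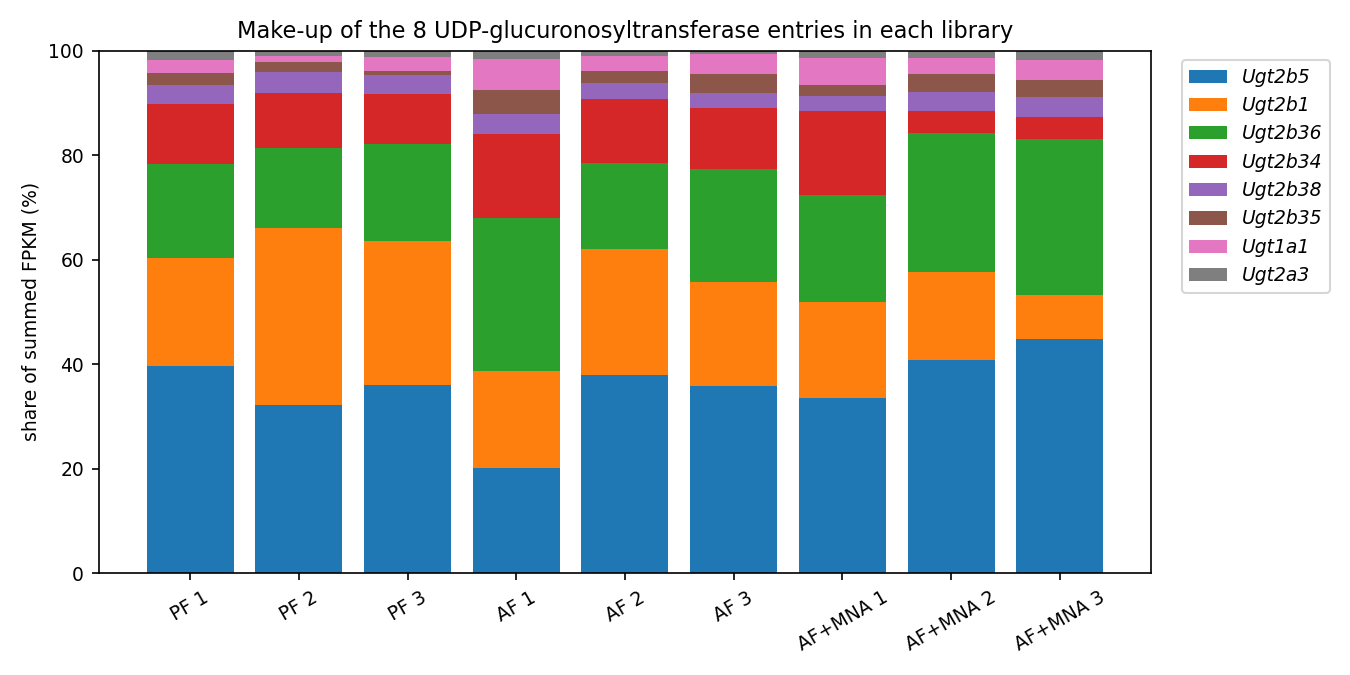
Stacked bars give each entry's share (%) of the summed FPKM of the 8 UGT entries in each of the 9 libraries. Ugt2b5 was the largest share in 7 libraries; Ugt2b1 led in PF 2 and Ugt2b36 in AF 1, where Ugt2b5 stood at 20.1%.

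Ranked by level, Ugt2b5 came first in PF at 238 ± 29.5 FPKM (SD, n = 3), followed by Ugt2b1 at 181 ± 46.4, Ugt2b36 at 114 ± 9.20, Ugt2b34 at 69.7 ± 10.3, Ugt2b38 at 24.9 ± 2.27, Ugt1a1 at 13.9 ± 5.53, Ugt2b35 at 11.2 ± 6.36 and Ugt2a3 at 8.69 ± 2.83. The PF libraries of Ugt2b5 and Ugt2b1 overlapped, as did those of Ugt1a1, Ugt2b35 and Ugt2a3, and the other neighbours in this order did not. In AF the order of means was Ugt2b5, Ugt2b36, Ugt2b1, Ugt2b34, Ugt1a1, Ugt2b35, Ugt2b38 and Ugt2a3, with Ugt2b36 overtaking Ugt2b1. In AF with MNA the first 5 places were the same as in AF, and Ugt2b38 stood ahead of Ugt2b35. A gene entry is scaled by the union of the exons of all its transcripts, which was at least 8923 bases for Ugt1a1. On the length of the 2224-base Ugt1a1 transcript its level would be 55.8 FPKM in PF, 104 in the AF group and 105 in AF with MNA, above Ugt2b38 and Ugt2b35 in every group and above Ugt2b34 in AF and AF with MNA, and in AF with MNA also above Ugt2b1. On that length the 8 entries summed to 703 ± 32.5, 731 ± 106 and 730.4 ± 75.4 FPKM (SD, n = 3), again closer to each other than the SD of any group, and the Ugt1a locus held 7.96% ± 3.26, 14.7% ± 4.86 and 14.5% ± 3.32 of the sum, a calculation added after the data were seen. This conversion takes every fragment of the locus to come from transcripts of that length.

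The liver identity of the libraries was checked on marker genes. The summed FPKM of 7 hepatocyte markers ran from 15697 to 21431 in PF, 15037 to 22361 in the AF group and 19402 to 22006 in AF with MNA, and 1 of the 7, Tat, had an unadjusted p under 0.05 and a log2 ratio of group means beyond 1, higher in AF than in PF, where 4.3% of all genes met both. Kidney tubule was represented by Slc34a1 alone, at 0.02 FPKM or less. Among 2 intestine markers Vil1 stayed under 0.5 FPKM and Fabp2, which hepatocytes also express, fell from 19.0 FPKM in PF to 6.93 in AF. Summed endothelial markers ran from 19.7 to 24.3 FPKM in PF, 24.9 to 36.2 in the AF group and 30.4 to 33.8 in AF with MNA; summed macrophage markers ran from 32.4 to 37.9, 20.0 to 36.3 and 28.7 to 38.1, and summed stellate cell markers from 29.3 to 30.2, 25.1 to 36.5 and 27.9 to 38.8. Cholangiocyte, lymphocyte and neutrophil markers each summed to at most 2.47 FPKM. The part of cell make-up in the UGT values was not tested, and in bulk liver fewer cells of a type and less RNA per cell cannot be told apart. AF replicate 3 and AF with MNA replicate 1 stood apart in assembled transcripts inside introns, with summed FPKM of 9433 and 8934 against 2477 to 4937 in the other 7 libraries, and their part was not tested. Member results that gain or lose the threshold or an unadjusted p under 0.05 without 1 of them are also given without it.

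Alcohol feeding was compared with pair feeding first. The Ugt1a locus entry and Ugt2b35 were higher in AF, and no other member had an unadjusted p under 0.05 in the main limma fit. Over 15 alternative analyses, Ugt2b36 had such a p in 3, Ugt2b38 in 2 and Ugt2b1 in 1. The rule that the study states for lncRNAs was applied here to genes. It takes a p under 0.05 and a log2 fold change (log2 FC) beyond 1 in either direction, and here the p is unadjusted and the log2 FC is the ratio of group means. Ugt2b35 alone among the 8 members passed it, where 4.3% of all 12268 tested genes did. None of the 8 had an adjusted p under 0.05 (limma, Benjamini-Hochberg over all genes tested), where 0.326% of all genes did, and 2 of 8 had an unadjusted p under 0.05, where 11.7% of all genes did. The median log2 FC was 0.06 over the members and -0.03 over all genes.

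The Ugt1a locus entry read 16.6, 7.54 and 17.6 FPKM in the 3 PF libraries, 30.4, 21.1 and 26.1 in the AF libraries, and 31.0, 23.5 and 23.9 in AF with MNA. Every AF and AF with MNA library lay above every PF library, with PF replicate 2 the lowest. The mean was 1.86-fold higher in AF, a log2 FC of 0.90, with an unadjusted p under 0.05 and an adjusted p of 0.365 by limma. The fitted difference on the log2(FPKM + 1) scale was 0.92 ± 0.32 (SE; 95% confidence interval 0.14 to 1.69). The entry passed the threshold without PF replicate 1, PF replicate 3 or AF replicate 2, with a log2 FC of up to 1.10. It lost its unadjusted p under 0.05 without AF replicate 1 (log2 FC 0.76) or AF replicate 3 (0.89) and with the Ballgown covariate model (fitted difference 1.00). Without PF replicate 2 the log2 FC was 0.60. The adjusted p in these analyses ran from 0.382 to 0.577 (limma or the Ballgown covariate model).

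Ugt2b35, whose coding sequence was 88.3% identical to that of Ugt2b36, read 16.6, 12.9 and 4.22 FPKM in PF, 24.6, 17.0 and 26.3 in the AF libraries, and 13.0, 25.4 and 19.3 in AF with MNA. The AF libraries all lay above PF, although AF replicate 2 exceeded PF replicate 1 by under 1 FPKM. The mean was 2.02-fold higher in AF (log2 FC 1.01, adjusted p = 0.424 by limma). Without PF replicate 3, the lowest library, the log2 FC was 0.62 (limma, adjusted p = 0.600), and without AF replicate 3 it was 0.89 (adjusted p = 0.472). The entry lost its call in 10 of 15 alternative analyses.

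Groups did not overlap between AF and PF for 3 of 8 members, Ugt1a1, Ugt2b34 and Ugt2b35, where 18.3% of all genes tested did not overlap. An exact permutation test of 3 against 3 libraries gave 0.1 for each, which is the smallest p it allows. Ugt2b34 read 78.6, 72.2 and 58.4 FPKM in PF and 83.9, 90.3 and 80.3 in AF. Its AF libraries sat just above the PF range, and the 1.22-fold difference did not pass the limma test (adjusted p = 0.537).

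Ugt2b36 read 123, 104 and 115 FPKM in PF and 152, 123 and 151 in AF, and AF replicate 2 fell within the PF range (log2 FC 0.32, limma, adjusted p = 0.492). Ugt2b1 read 141, 232 and 170 FPKM in PF and 96.2, 180 and 139 in AF, with AF replicate 2 again inside the PF range (log2 FC -0.39, limma, adjusted p = 0.640). Neither difference passed the limma test. The 95% intervals of the fitted difference were -0.06 to 0.68 for Ugt2b36 and -1.09 to 0.29 for Ugt2b1.

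Ugt2b5, the most abundant entry, read 272, 220 and 222 FPKM in PF and 104.5, 282 and 249 in AF. A single library, AF replicate 1, lay far below the rest and held the lowest Ugt2b5 level of the 9 libraries, and without it the log2 FC turned from -0.17 to 0.16. Its near-identical neighbour Ugt2b38 read 25.0, 27.1 and 22.6 FPKM in PF and 19.3, 23.7 and 19.7 in AF (log2 FC -0.25, limma, adjusted p = 0.562). The Ugt2b38 libraries overlapped in a narrow range, and its interval for the fitted difference was -0.58 to 0.09. Summed over both genes, the level was 263 ± 29.6 FPKM in PF, 233 ± 96.3 in the AF group and 283 ± 59.6 in AF with MNA (SD, n = 3). The groups differed by less than the spread within AF. Shared reads that were dropped or counted at both genes would alter this sum too. The ratio of Ugt2b5 to Ugt2b38 was 5.40 in AF replicate 1 and between 8.11 and 12.7 in the other 8 libraries.

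Ugt2a3, the sole Ugt2a gene with appreciable signal, read 12.0, 7.24 and 6.89 FPKM in PF and 8.12, 7.57 and 4.33 in AF. The groups overlapped, and the log2 FC of -0.38 did not pass the limma test (adjusted p = 0.686). Its interval on the fitted scale ran from -1.01 to 0.34.

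**Figure D2:**
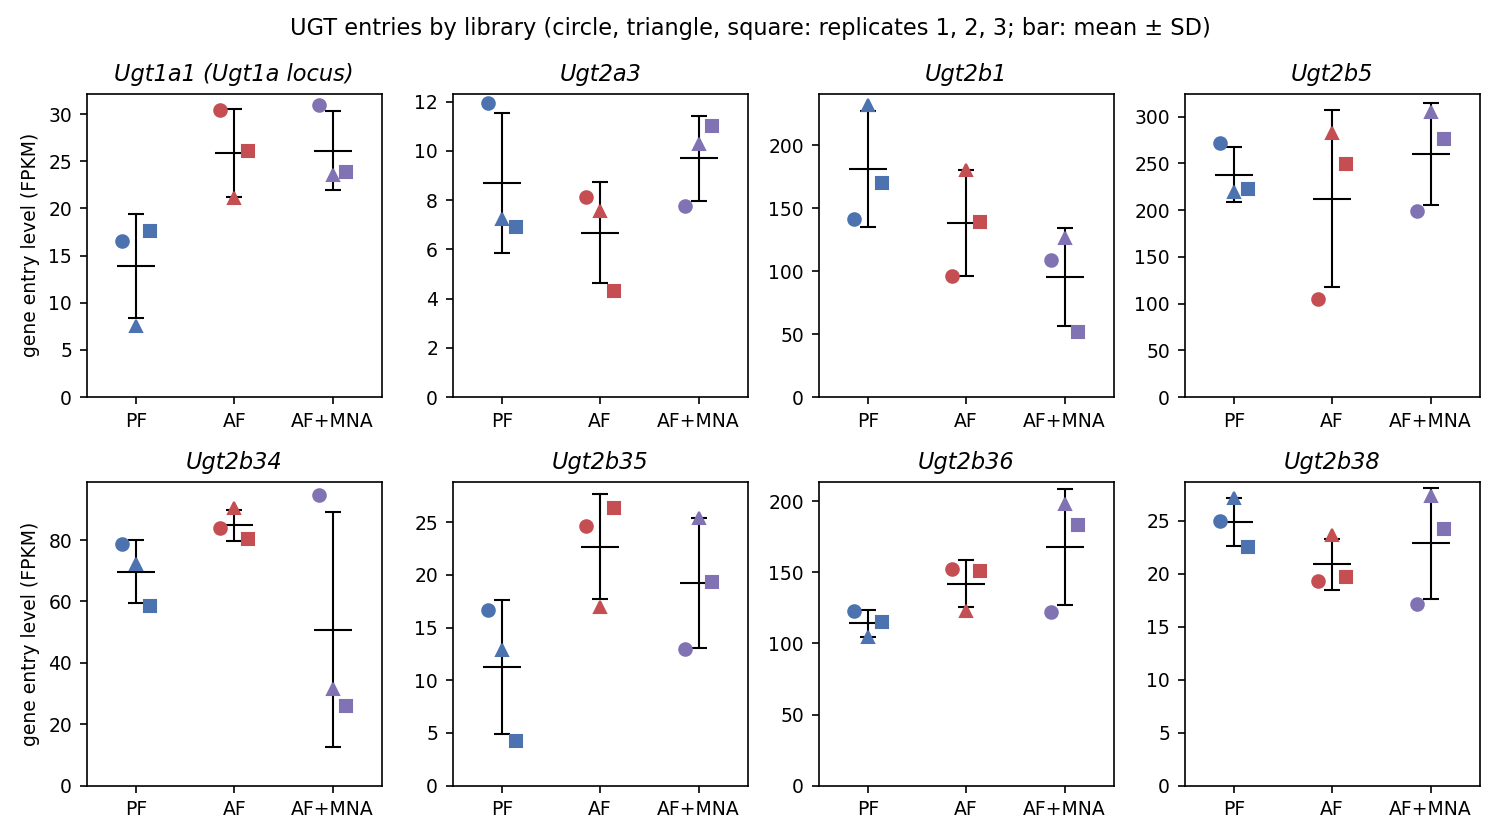
Each panel plots the gene entry level (FPKM, linear axis from 0) of 1 UGT entry in the 3 libraries of PF, AF and AF with MNA (AF+MNA), with circle, triangle and square for replicates 1, 2 and 3 and a bar for mean ± SD. The 6 alcohol-fed libraries of the Ugt1a1 entry lie between 21.1 and 31.0 FPKM, above the PF libraries at 7.54 to 17.6, and the AF with MNA libraries of Ugt2b34 split into 94.8 against 31.4 and 26.0.

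MNA was compared with alcohol feeding alone next. None of the 8 members passed the threshold, where 1.98% of 12214 genes did. None had an unadjusted p under 0.05, where 5.22% of all genes did, and none an adjusted p under 0.05 (limma), where 0.0491% did. Over 15 alternative analyses, Ugt2b34 had an unadjusted p under 0.05 in 2. For 0 of 8 members the groups did not overlap, where 10.1% of all genes did not. The median log2 FC was 0.07 over the members and 0.01 over all genes.

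Ugt2b34 and Ugt2b1, which are neighbours in the cluster, had the lowest values of all 9 libraries in AF with MNA. Ugt2b34 read 94.8, 31.4 and 26.0 FPKM there, so that replicate 1 was the highest and replicates 2 and 3 the lowest of all libraries. With all 3 libraries the log2 FC against AF was -0.74 (limma, adjusted p = 0.940), and without AF with MNA replicate 3 it was -0.43. Without AF with MNA replicate 1, 1 of the libraries rich in intronic transcripts, it was -1.56 with an adjusted p of 0.0967 by limma, and it then passed the threshold. That library also stood apart from replicates 2 and 3 in transporters, with Abcc4 at 7.11 FPKM against 1.88 and 2.92, Slco1a1 at 8.38 against 27.2 and 26.6, and Slco1a4, named after its values were seen, at 18.9 against 4.97 and 2.38.

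Ugt2b1 read 109, 126 and 51.5 FPKM in AF with MNA, and its 2 higher libraries lay within the AF range of 96.2 to 180. The mean was 0.688 times that of AF (log2 FC -0.54), with an adjusted p of 0.966 by limma. Without AF with MNA replicate 3, the lowest of the 9 libraries, the log2 FC was -0.24.

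The means of Ugt2b5 and Ugt2b36 differed from AF by less than the SD of AF with MNA. Ugt2b5 read 199, 305 and 276 FPKM in AF with MNA (log2 FC 0.29, limma, adjusted p = 0.980), and the sign turned to -0.03 without AF replicate 1. Ugt2b36 read 122, 198 and 183 FPKM (log2 FC 0.24, limma, adjusted p = 0.980). In both, replicate 1 was the lowest AF with MNA library. Replicates 2 and 3 exceeded every AF library of Ugt2b36, and for Ugt2b5 replicate 2 did and replicate 3 did not.

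Among the lower entries, Ugt2a3 read 7.75, 10.3 and 11.0 FPKM in AF with MNA, with replicates 2 and 3 above every AF library (log2 FC 0.54, limma, adjusted p = 0.940). Ugt2b38 read 17.1, 27.3 and 24.2 FPKM and spanned the AF range (log2 FC 0.13, limma, adjusted p = 0.995). The Ugt1a locus entry had a log2 FC of 0.02 with an interval of the fitted difference from -0.43 to 0.46, and Ugt2b35 had -0.24 with an interval from -0.91 to 0.41.

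**Figure D3:**
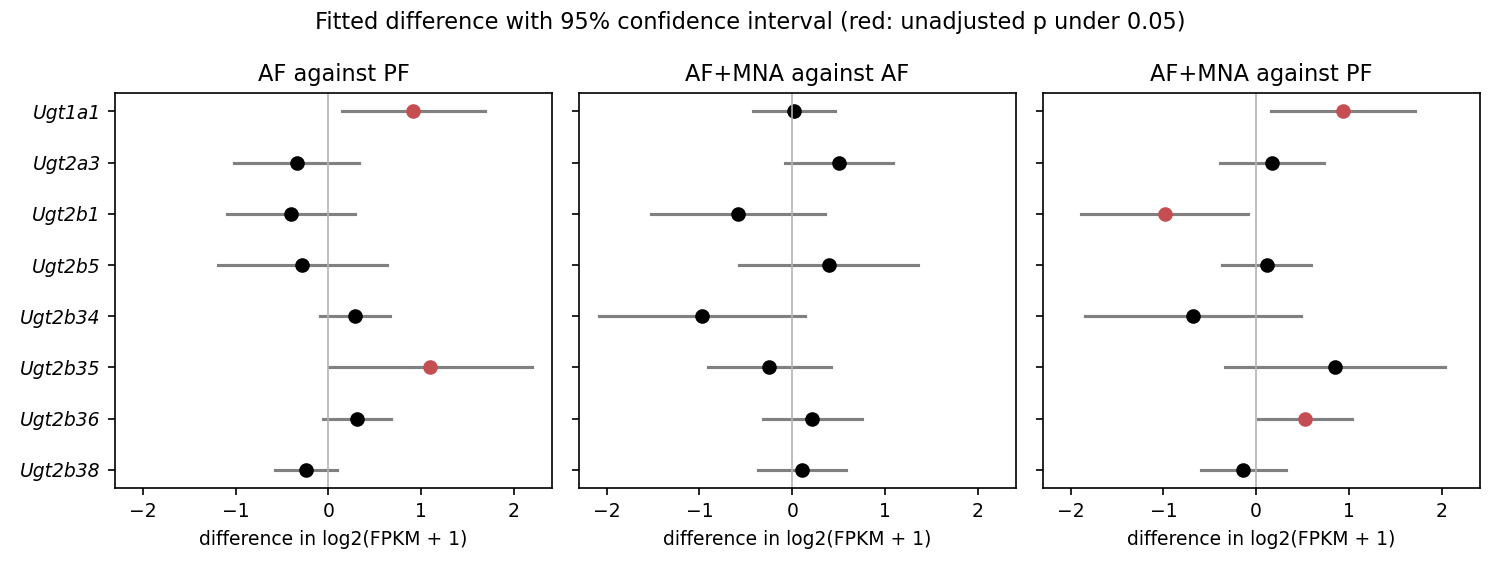
Points give the fitted difference in log2(FPKM + 1) for each UGT entry and lines its 95% confidence interval, in AF against PF, AF with MNA (AF+MNA) against AF, and AF with MNA against PF, with red for an unadjusted limma p under 0.05. Ugt1a1 and Ugt2b35 are red in the first comparison, no entry in the second, and Ugt1a1, Ugt2b1 and Ugt2b36 in the third.

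AF with MNA was then set against PF. This comparison shares its PF libraries with the first and its AF with MNA libraries with the second, so the 3 are not independent. None of the 8 members passed the threshold, where 3.89% of 12276 genes did, and none had an adjusted p under 0.05 (limma), where 0.432% of all genes did. Unadjusted p-values under 0.05 were found for 3 of 8 members, where 14.5% of all genes had one. Groups did not overlap for 2 of 8 members, Ugt1a1 and Ugt2b1, where 21.4% of all genes did not.

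The Ugt1a locus entry was 1.88-fold higher than in PF (log2 FC 0.91, limma, adjusted p = 0.286). It passed the threshold without PF replicate 1 (log2 FC 1.06) or PF replicate 3 (1.11), and lost its unadjusted p under 0.05 without AF with MNA replicate 1 (0.77, limma, adjusted p = 0.423). Ugt2b1 was lower at 95.3 ± 38.9 FPKM against 181 ± 46.4 (SD, n = 3; log2 FC -0.93, limma, adjusted p = 0.317). It passed the threshold without PF replicate 1 (log2 FC -1.08), AF with MNA replicate 1 (-1.03, limma, adjusted p = 0.362) or AF with MNA replicate 2 (-1.18). The unadjusted p of Ugt2b1 no longer reached 0.05 without PF replicate 2 (log2 FC -0.71), PF replicate 3 (-0.97) or AF with MNA replicate 3 (-0.63, limma, adjusted p = 0.466). With the Ballgown covariate model neither entry reached it (fitted differences of -1.09 for Ugt2b1 and 1.31 for Ugt1a1). Ugt2b36 was higher at 168 ± 40.5 against 114 ± 9.20 FPKM (SD, n = 3; log2 FC 0.56, limma, adjusted p = 0.334). Ugt2b1 and Ugt2b36 thus lay on opposite sides of their PF levels.

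The remaining members gave log2 FC values of 0.78 for Ugt2b35, 0.16 for Ugt2a3, 0.13 for Ugt2b5, -0.12 for Ugt2b38 and -0.46 for Ugt2b34, none with a limma p under the 0.05 level in the main fit. Ugt2b34 and Ugt2b38 each had an unadjusted p under 0.05 in 1 of 15 alternative analyses. For Ugt2b34 the log2 FC was -1.28 with an adjusted p of 0.0976 by limma without AF with MNA replicate 1, and -0.14 without AF with MNA replicate 3. For Ugt2b36, leaving out AF with MNA replicate 1 gave 0.74 with an adjusted p of 0.143 by limma. Leaving out any other library gave 0.42 to 0.61 for Ugt2b36, without an unadjusted p under 0.05, and 8 of 15 alternative analyses kept such a p.

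An antisense RNA of the Ugt1a locus, Gm20528, was higher in both alcohol-fed groups. It read 2.12, 2.05 and 2.49 FPKM in PF, 4.54, 3.82 and 3.67 in the AF libraries, and 3.98, 4.72 and 3.78 in AF with MNA. The groups did not overlap against PF (log2 FC 0.85, limma, adjusted p = 0.131 in AF; log2 FC 0.91, adjusted p = 0.0983 in AF with MNA). Nearly all of this signal was in 1 transcript with exons of 528 and 274 bases, and both exons lay wholly over exons of Ugt1a1 on the other strand. The libraries were made strand-specific, but whether the strand was used in counting is not given in the sources used here, so reads of the 2 strands cannot be told apart.

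Among 12 other UGT genes, 6 had an entry and only Ugt3a1 and Ugt3a2 passed the minimum of 0.5 FPKM. Both use UDP-sugars other than UDP-glucuronic acid. Ugt3a1 read 25.1, 20.5 and 13.7 FPKM in PF, 6.02, 9.71 and 9.30 in the AF libraries, and 7.68, 16.2 and 14.7 in AF with MNA. Every AF library lay below every PF library, and the mean fell by 1.24 on the log2 scale, past the threshold (limma, adjusted p = 0.190).

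Ugt3a2, its neighbour on chromosome 15, read 77.9, 56.7 and 50.1 FPKM in PF, 46.4, 52.4 and 46.5 in the AF libraries, and 73.6, 80.8 and 78.1 in AF with MNA. All AF with MNA libraries lay above all AF libraries (log2 FC 0.68, limma, adjusted p = 0.524), short of the log2 FC threshold. Ugt2b37 reached at most 0.55 FPKM, Ugt8a 0.24, Ugt2a1 0.15 and Ugt2a2 0.04, and the 6 remaining Ugt1a genes had no entry of their own.

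**Figure D4:**
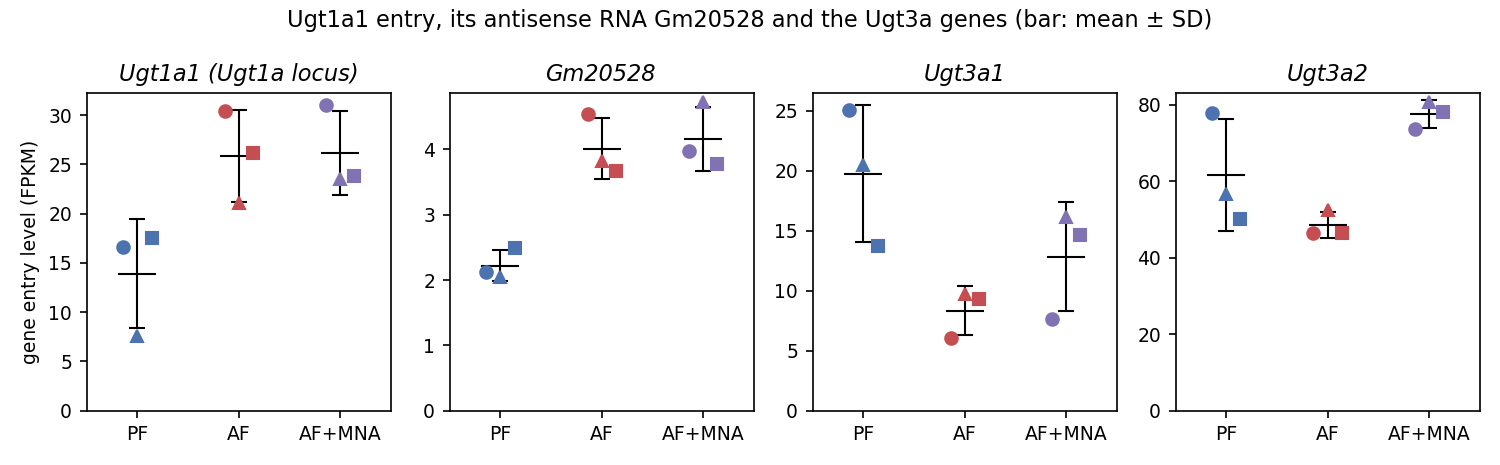
Panels plot the level (FPKM, linear axis from 0) of the Ugt1a1 entry, the antisense RNA Gm20528, Ugt3a1 and Ugt3a2 in each library of PF, AF and AF with MNA (AF+MNA), with symbols for replicates and bars for mean ± SD. Gm20528 lies at 2.05 to 2.49 FPKM in PF and 3.67 to 4.72 in the alcohol-fed libraries, and Ugt3a1 is lower in all AF libraries than in PF.

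Of 9 listed genes that supply the cofactor UDP-glucuronic acid, 8 were tested, and 0 of 8 were past the threshold in AF against PF, AF with MNA against AF or AF with MNA against PF, where 4.3%, 1.98% and 3.89% of all genes were. Their median log2 FC was -0.24 in AF against PF. Ugp2, which makes UDP-glucose, read 60.8, 92.2 and 109 FPKM in PF, 111, 87.9 and 177 in the AF libraries, and 135, 74.1 and 150 in AF with MNA, with wide overlap. Ugdh, which oxidises UDP-glucose to UDP-glucuronic acid, had no row of its own, and its transcript was merged into an entry of 12 transcripts named Smim14 at 6.47 ± 2.37 FPKM in PF, 9.16 ± 1.56 in the AF group and 7.39 ± 1.41 in AF with MNA.

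Of 6 tested genes for glucuronide hydrolysis and glucuronate use, 0 passed the threshold in any of these comparisons, against the same shares of all genes. Gusb, the beta-glucuronidase that cleaves glucuronides, read 4.81 ± 0.43 FPKM in PF, 5.85 ± 0.74 in the AF group and 5.84 ± 0.10 in AF with MNA. Its log2 FC of 0.28 in AF had an adjusted p of 0.562 by limma. In AF against PF, 2 of 6 had an unadjusted p under 0.05, both lower, where 11.7% of all genes had one, and for 4 of 6 the groups did not overlap, where 18.3% of all genes did not. Gulo, an enzyme of vitamin C synthesis from glucuronate that was named after its values were seen, was 216 ± 18.2 FPKM in PF, 116 ± 22.4 in the AF group and 152 ± 8.24 in AF with MNA (SD, n = 3). All its AF libraries lay below all PF libraries, with AF with MNA between them (log2 FC -0.90 in AF, limma, adjusted p = 0.139).

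Among transporters of glucuronides, 2 of 7 were upregulated and 1 was downregulated past the threshold in AF against PF, where 4.3% of all genes passed it in either direction. Abcc3, which exports glucuronides across the sinusoidal membrane, read 30.6, 29.8 and 27.5 FPKM in PF, 107, 80.8 and 84.2 in the AF libraries, and 93.6, 69.5 and 63.9 in AF with MNA. No alcohol-fed library came near the PF level (log2 FC 1.63, adjusted p = 0.0143 in AF; 1.37, adjusted p = 0.0459 in AF with MNA; limma). Abcc4, another sinusoidal exporter, was 0.31, 0.32 and 0.25 FPKM in PF and 7.43, 6.12 and 5.04 in AF (log2 FC 4.40, limma, adjusted p = 0.00293; fitted difference 2.46). In PF it lay under the minimum of 0.5 FPKM, so it entered the test through the AF libraries. Slco1a1, an uptake carrier, fell from 45.5 ± 9.74 FPKM in PF to 11.0 ± 5.70 in AF (log2 FC -2.04, limma, adjusted p = 0.114). Abcc2, the exporter into bile, was at 47.5 ± 6.97, 58.9 ± 3.89 and 50.3 ± 8.84 FPKM. All its AF libraries lay above all PF libraries, and the log2 FC of 0.31 did not pass the limma test (adjusted p = 0.489).

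Of the 15 tested regulators of UGT genes, 0 passed the threshold in AF against PF, 1 did in AF with MNA against AF, and 2 did in AF with MNA against PF, where 4.3%, 1.98% and 3.89% of all genes did. Nr1i3, which encodes the constitutive androstane receptor (CAR), read 11.3, 16.0 and 12.1 FPKM in PF, 14.2, 12.7 and 54.1 in the AF libraries, and 25.8, 47.2 and 18.3 in AF with MNA. AF replicate 3 alone was high in AF, and all AF with MNA libraries exceeded PF (log2 FC 1.21, limma, adjusted p = 0.273). Ahr, the aryl hydrocarbon receptor, was 6.37 ± 0.37 FPKM in PF and 3.93 ± 0.25 in AF with MNA, a log2 FC of -0.70 short of the threshold (limma, adjusted p = 0.0907). Foxa2 read 2.42, 9.69 and 3.56 FPKM in AF with MNA against 1.11, 0.93 and 1.15 in AF, with replicate 2 well above the rest (limma, adjusted p = 0.940). Bcl6 read 2.52, 0.72 and 1.84 FPKM in AF with MNA against 4.6, 12.5 and 4.9 in PF, with PF replicate 2 far above the others (limma, adjusted p = 0.216).

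The receptors and factors Nr1i2 (PXR), Nfe2l2 (NRF2), Ppara and Hnf4a did not pass the threshold in any comparison. Hnf4a ranged from 29.1 FPKM in AF replicate 3 to 69.4 in AF replicate 2.

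Most genes that report on receptor activity were upregulated in both alcohol-fed groups. Past the threshold were 6 of 9 tested indicators in AF against PF and 8 of 9 in AF with MNA against PF, all higher, where 4.3% and 3.89% of all genes passed it in either direction. Their median log2 FC values were 1.43 and 1.75. Cyp2b10, the indicator of CAR, read 0.28, 0.22 and 3.33 FPKM in PF, 260, 195 and 133 in the AF libraries, and 183, 122 and 103 in AF with MNA. Cyp3a11, the indicator of PXR, rose from 107 ± 30.4 FPKM in PF to 287 ± 57.0 in the AF group and 358 ± 57.0 in AF with MNA (limma adjusted p = 0.121 and 0.0769). Nqo1, an indicator of NRF2, was 1.78 ± 0.49, 6.36 ± 3.22 and 5.50 ± 1.26 FPKM. Cyp2c55, which at 0.26 FPKM in PF entered the test through the alcohol-fed libraries, Cyp4a14 and Gclc also passed the threshold in both, and Cyp4a10 and Acot1 passed it in AF with MNA against PF. Acot1 also passed it in AF with MNA against AF, at 23.5 against 9.63 FPKM, but not with the limma adjustment over all genes (adjusted p = 0.940). Cyp1a2, an indicator of the aryl hydrocarbon receptor, passed the threshold in neither, at 317 ± 31.6, 619 ± 106 and 602 ± 60.1 FPKM (log2 FC 0.97 and 0.93, limma, adjusted p = 0.127 and 0.0907). The lists of UGTs and indicators were not tested against each other.

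**Figure D5:**
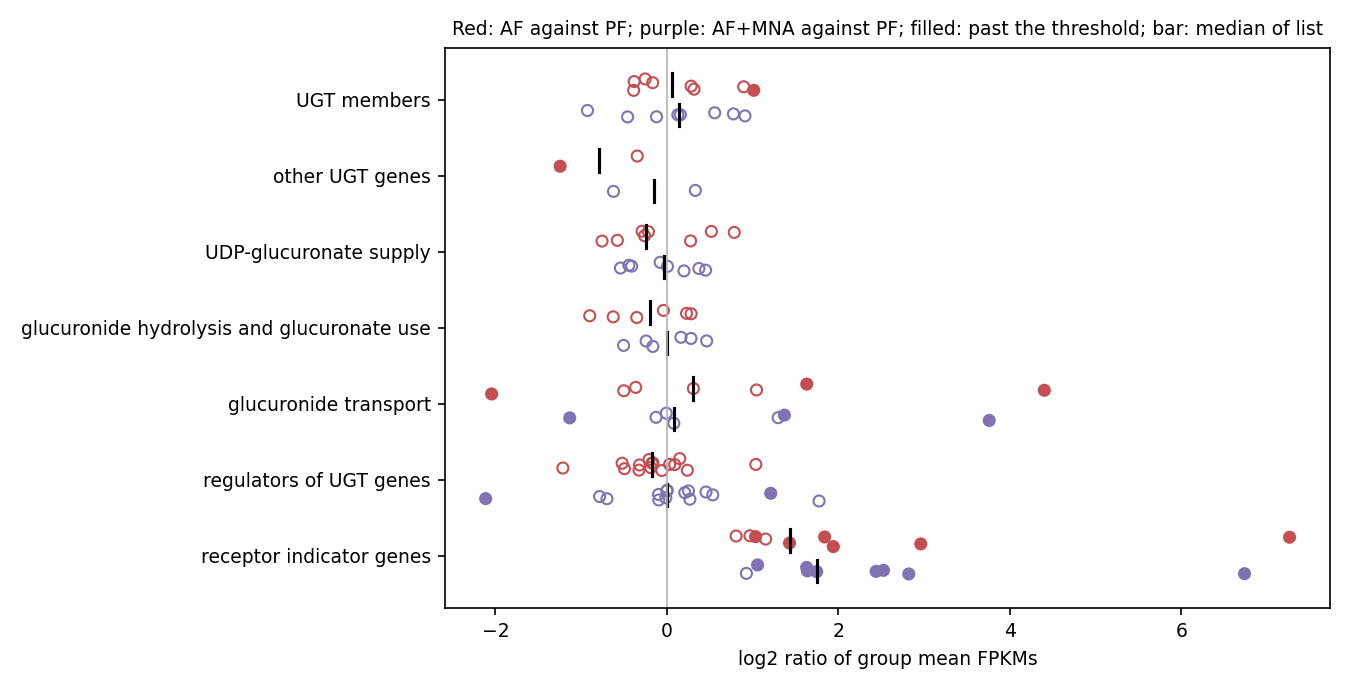
Each point is 1 tested gene of a list, placed by its log2 ratio of group mean FPKMs, with red for AF against PF, purple for AF with MNA (AF+MNA) against PF, filled symbols for genes past the threshold and a bar for the list's median. The UGT medians are 0.06 and 0.14, and those of the receptor indicator genes are 1.43 and 1.75.

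Apart from Gm20528 and Gm42796, other RNAs of the same loci were scarce. The lncRNA table listed 3 transcripts over the Ugt1a locus and 12 over the chromosome 5 cluster, 11 of the latter assembled and not in the annotation. At the Ugt1a locus the known Gm20528 transcript alone was above 0 in 5 or more libraries, and at the cluster 3 transcripts were. The most abundant of the cluster was Gm42796, listed between 0 and 15.9 FPKM with 3 libraries at 0. Of 4486 circRNAs, 3 came from UGT genes (2 from Ugt2b36 and 1 labelled Ugt1a7c), with 8 of 17959 back-splice junction reads, too few to compare groups.

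The entries whose level most resembled the summed FPKM of the 8 UGT entries across the 9 libraries were chosen by Pearson correlation of log2(FPKM + 1) among 11796 tested entries. They were Gm6096 (r = 0.93), Ssx2ip (r = 0.93), Tinf2 (r = 0.90), Plce1 (r = 0.89) and Arhgef10 (r = 0.88). All 5 stood at 5.15 FPKM or less in every library and, as with the UGT sum, were lowest in AF replicate 1. The 9 libraries come from 3 groups and the entries share each library's scaling, so these values are descriptive.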

How the data were processed

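Ribosome-depleted, strand-specific, paired-end liver libraries of PF, AF and AF with MNA (3 each) were grouped by their titles. The submitters' processing notes name cutadapt 1.9, FastQC, HISAT2, TopHat, StringTie 1.3.4 and edgeR, and the methods name Ballgown. The genome build is not given in the sources used here. Of the known lncRNA transcripts in the table, 7841 of 7879 were found in GENCODE M21 (GRCm38) and 7708 had identical ends there, and that annotation supplied positions.

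The FPKM values of gene entries and lncRNA transcripts were made by the authors with StringTie. Gene and FPKM tables hold no read counts. The coverage signal of lncRNA transcripts, deposited by the authors, was a fixed multiple of FPKM in each library (5.84 to 8.30), so the mean coverage implied for the UGT entries ran from 26.0 to 2430 reads per base. The circRNA counts deposited by the authors are back-splice junction reads, and their normalized signal was not tested. On 131 lncRNA gene entries, 96.5% of 595 gene FPKM values were within 2% of the length-weighted transcript sum divided by the union of exons, and 8.2% within 2% of the plain sum.

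Named gene entries holding at least 1 known transcript (26345) were kept. In each comparison, those averaging 0.5 FPKM or more in the 6 libraries entered a two-sided test of log2(FPKM + 1) in limma 3.58.1, using lmFit and a trended eBayes, and Benjamini-Hochberg adjustment over all entries tested. The threshold was p under 0.05 together with a ratio of group means beyond 1 on the log2 scale. The fit was tested on simulated data. Exact permutation tests were two-sided. Where the log2 FC and the fitted difference are both given, the first is the ratio of mean FPKMs and the second understates the change of low genes.

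All members and every other UGT gene with a row were named. Of the other lists, genes past the threshold in any comparison and a set of preselected genes were named. 1 regulator counted in its list is not reported here. The members and lists were chosen with earlier results of these data known. Alternatives were a pseudocount of 0.1, other minimum levels, a common median, no trend, all 9 libraries in the fit, a replicate block, the Ballgown covariate without moderation, the coefficient as fold change, and each library left out. Samples with the same number did not deviate together (correlations of -0.08 to 0.06). Promoters are from RefSeq (GRCm38.p6), and all 10 members matched. R 4.3.3, Python 3.11.15, pandas 2.3.3, Biopython 1.88 and matplotlib 3.10.9 were used.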

Additional observations from a re-analysis of the deposited data

How the results depend on the processing

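No member had an adjusted p under 0.05 in any of the 3 comparisons under any alternative, with limma or with the Ballgown covariate model. The count of 1 member past the threshold in AF against PF became 0 with a pseudocount of 0.1, any value above 0, a mean of at least 2 FPKM, the replicate block or the Ballgown covariate, and ranged from 0 to 2 when each library was left out. The same count ranged from 0 to 1 in AF with MNA against AF and from 0 to 2 in AF with MNA against PF. In AF against PF, Ugt2b35 kept its direction in all 15 alternatives and lost its call in 10 of them, with adjusted p-values of 0.330 to 0.621 (limma). Its log2 FC ran from 0.62 without PF replicate 3 to 1.41 without PF replicate 1. In the alternatives that kept every library, its log2 FC or fitted difference was 1.01 to 1.19. Signs turned in 9 cases. With each library left out, the log2 FC of Ugt2b5 ranged from -0.43 to 0.16 in AF against PF (positive without AF replicate 1), from -0.033 to 0.55 in AF with MNA against AF (negative without AF replicate 1), and from -0.0022 to 0.29 in AF with MNA against PF (negative without AF with MNA replicate 2). In AF with MNA against AF, Ugt1a1 ranged from -0.13 to 0.15 (-0.11 without AF replicate 2, -0.13 without AF with MNA replicate 1) and Ugt2b38 from -0.014 to 0.30 (negative without AF with MNA replicate 2). In AF with MNA against PF, Ugt2b38 ranged from -0.27 to 0.050 (positive without AF with MNA replicate 1). With the Ballgown covariate, the fitted difference in AF with MNA against PF was -0.15 for Ugt2b5 and -0.033 for Ugt2a3. In the main fit these fitted differences were 0.11 and 0.17. The cause of these changes was not tested.

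Over all genes, the 527 past the threshold in AF against PF became 1183 with any value above 0, 265 with at least 2 FPKM, 335 with the Ballgown covariate and 249 with the coefficient as fold change. The 242 of AF with MNA against AF became 676, 81, 106 and 99, and the 477 of AF with MNA against PF became 1105, 228, 246 and 229. Genes with an adjusted p under 0.05 in AF against PF (40) became 25 with any value above 0, 86 with all 9 libraries, 18 with the replicate block and 0 with the Ballgown covariate. In AF with MNA against AF (6) they became 2 with any value above 0, 2 with at least 2 FPKM, 0 with all 9 libraries, 1 with the block and 1 with the covariate. In AF with MNA against PF (53) they became 22 with any value above 0, 0 with the block and 0 with the covariate. With each library left out, the genes past the threshold ranged from 516 to 764, 211 to 367 and 467 to 545, and the adjusted counts from 25 to 47, 6 to 13 and 24 to 47. A left-out library leaves 2 in its group. The summed FPKM ranged from 649.9 to 683.8 in PF, 607.4 to 720.4 in AF and 604.2 to 680.8 in AF with MNA. With the Ugt1a1 entry on the length of 1 transcript, an alternative chosen after seeing the data, it was 703.3, 731.3 and 730.4. The correlations by replicate number gave no sign of pairing, but 3 libraries a group cannot exclude it. With the replicate block, the unadjusted limma p in AF against PF went from 0.210 to 0.0436 for Ugt2b1. For Ugt1a1 it went from 0.0269 to 0.00735, and for Ugt2b35 from 0.0489 to 0.0593.

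The gene tables hold no counts, so precision was judged from the spread between 3 libraries a group, and a member with a wide interval was not shown to be the same between groups. The Ugt1a entry cannot be resolved into its genes, and Ugt2b5 and Ugt2b38 share sequence.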

Other observations

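Across the 9 libraries the Ugt2b genes did not all vary together. Ugt2b34 and Ugt2b36 had the lowest Pearson correlation of level among the pairs of members (r = -0.72), followed by Ugt2b1 and Ugt2b36 (r = -0.70), and Ugt2b35 and Ugt2b36 had the highest (r = 0.65). The neighbouring genes Ugt2b1 and Ugt2b34 had r = 0.54. The libraries belong to 3 groups and share each library's scaling, so these are descriptions without a test.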
